A study of Homo sapiens with 12 samples.

Results

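The enzymes of the lower part of glycolysis, from aldolase to pyruvate kinase, were followed through their transcripts ALDOA, ALDOC, TPI1, GAPDH, PGK1, PGAM1, ENO1, ENO2 and PKM. They were taken by gene name from the expression table, which gave 9 of 22963 names in all 12 libraries. The libraries form 4 groups of 3. PLC/PRF5 cells, a human hepatoma line, carried the empty lentiviral vector (Vector) or the same vector with the EGR1 coding sequence behind a CMV promoter (EGR1). MHCC97H cells, another human hepatocellular carcinoma line, were unedited (Parental) or labelled EGR1 knockout (EGR1_KO). The knockout lines were made with CRISPR/Cas9 and grown from single cells, so that group stands for clonal cells, and which clone was sequenced is not given in the sources used here. Both lines grew in DMEM with fetal bovine serum, and the labels call the 3 libraries of a group biological replicates without saying whether they came from separate cultures, so p-values measure the spread between these libraries.

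Aldolase splits fructose bisphosphate into a pair of triose phosphates, and triosephosphate isomerase (TPI1) interconverts them. GAPDH, phosphoglycerate kinase (PGK1), phosphoglycerate mutase (PGAM1), enolase and pyruvate kinase then carry the carbon to pyruvate, with ATP formed at the PGK1 and pyruvate kinase steps. Several steps have isoforms with their own tissues. ALDOA is the muscle and general aldolase and ALDOC that of brain, while ENO1 is the general enolase, ENO2 the neuronal one and ENO3 that of muscle. PKLR is the pyruvate kinase of normal liver and red cells, and PKM is that of most other tissues and of tumours. EGR1 is a zinc finger transcription factor induced early by growth signals, and many genes of this pathway are known targets of the hypoxia-inducible factors.

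Expression was given as FPKM, the fragments of a gene scaled to its length and to all mapped fragments, so levels of different genes are compared per length. The sum of FPKM ranged from 376335 to 437652 per library, and the number of reads is unknown. In PLC/PRF5 cells the EGR1 transcript measured 1.97, 1.43 and 2.03 FPKM with Vector against 56.3, 50.2 and 52.2 with EGR1. In MHCC97H cells EGR1 mRNA was not lower under the knockout label: it was 20.2, 23.1 and 21.2 in the Parental libraries and 35.2, 50.3 and 32.9 in those labelled EGR1 knockout. Each direction given for those libraries carries that limit, and an mRNA level alone cannot show whether the protein was lost. The methods of the study state that the knockout clones were checked by western blot and by sequencing of the DNA, and neither protein nor edited sequence was measured in these files. Of 13 hepatocyte lineage markers, 12 had a mean FPKM of at least 1 in Vector and in EGR1, 7 in Parental and 8 in the libraries labelled EGR1 knockout. TTR was under 1 in every group, and SERPINA1, GPC3 and APOA1 were under 1 in both MHCC97H groups. The summed FPKM of the 13 markers ranged from 3992 to 4245 in Vector and from 4802 to 6059 in EGR1. It ranged from 1499 to 1878 in Parental and from 2288 to 2720 in the libraries labelled EGR1 knockout. Most of this sum was KRT8 and KRT18 in MHCC97H cells. Their means were 1102 and 517 in Parental and 1775 and 635 in the libraries labelled EGR1 knockout. There mean ALB was 15.2 against 0.885 in Parental, and mean APOB 0.15 against 1.27. With EGR1, mean SERPINA1 went from 1372 to 2580 and APOA1 from 3.18 to 113, while GPC3 went from 5.3 to 4.94. Of 10 markers of other cell types, KRT19 alone changed from under 1 in PLC/PRF5 to a mean of 131 in Parental and 247 in the libraries labelled EGR1 knockout. The part of these differences in the results was not tested, and in bulk RNA fewer cells with a transcript and less of it per cell cannot be told apart.

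The promoters of the members are shown because all 8 members tested had lower FPKM with EGR1 overexpression, 5 of them with a limma adjusted p under 0.05. ENO2 was too low there to be tested. RefSeq windows on GRCh38.p14, from 250 bases before to 50 bases after an annotated start, were found for all 9 members, 12 windows in all, with 3 for ALDOA and 2 for TPI1. The EGR1 letters GCGTGGGCG occur on either strand in 0.795% of 35116 promoter windows and GCGGGGGCG in 5.07%, and neither is in a window of a member. The hypoxia response core ACGTG occurs in 21.4% of all windows and in 66.7% of the members' windows, and GCGTG, which also lies within GCGTGGGCG, occurs in 36.5% and 41.7%. TATAAA occurs in 11.5% of all windows and in 0 of the members'. The members' windows held 53.3% to 75.0% GC against a median of 58.7% for all windows. Windows of 4 members are printed, 1 each, 5′ to 3′ on the strand of the gene, with matches to ACGTG or GCGTG on either strand in capitals: ALDOA and ALDOC, the aldolases with the largest falls under EGR1, PGK1, whose pattern differed from its neighbours in the pathway, and ENO2, which differed most between the lines. They lie at chr16:30065510-30065809 (plus strand), chr17:28576846-28577145 (minus strand), chrX:78103998-78104297 (plus strand) and chr12:6914330-6914629 (plus strand).
ALDOA: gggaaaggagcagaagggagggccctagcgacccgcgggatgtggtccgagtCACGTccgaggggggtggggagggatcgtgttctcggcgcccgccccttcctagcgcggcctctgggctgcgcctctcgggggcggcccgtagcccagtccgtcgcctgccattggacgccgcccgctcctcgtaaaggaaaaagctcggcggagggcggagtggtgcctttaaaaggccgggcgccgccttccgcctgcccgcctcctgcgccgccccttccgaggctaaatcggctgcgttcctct
ALDOC: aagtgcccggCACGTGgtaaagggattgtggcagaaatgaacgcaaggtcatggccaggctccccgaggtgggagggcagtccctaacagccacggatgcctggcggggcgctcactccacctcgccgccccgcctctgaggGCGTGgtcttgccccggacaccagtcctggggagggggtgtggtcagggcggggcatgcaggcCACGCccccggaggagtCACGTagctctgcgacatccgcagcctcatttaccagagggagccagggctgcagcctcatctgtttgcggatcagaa
PGK1: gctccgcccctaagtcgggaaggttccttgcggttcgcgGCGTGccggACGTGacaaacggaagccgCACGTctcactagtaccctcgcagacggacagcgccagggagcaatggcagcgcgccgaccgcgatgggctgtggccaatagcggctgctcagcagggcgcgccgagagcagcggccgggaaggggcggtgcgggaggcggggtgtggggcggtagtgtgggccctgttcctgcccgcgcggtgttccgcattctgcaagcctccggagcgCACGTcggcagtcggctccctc
ENO2: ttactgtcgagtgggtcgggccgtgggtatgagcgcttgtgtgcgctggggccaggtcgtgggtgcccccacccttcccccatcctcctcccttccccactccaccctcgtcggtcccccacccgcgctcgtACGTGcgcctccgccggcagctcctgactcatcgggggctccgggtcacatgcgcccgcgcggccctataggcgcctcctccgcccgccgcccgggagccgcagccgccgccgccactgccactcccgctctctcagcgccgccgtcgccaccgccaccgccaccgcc
The ALDOC window held 3 matches to ACGTG and 2 to GCGTG, the PGK1 window 3 and 1, and the ENO2 and ALDOA windows 1 ACGTG each. CACGTG reads as ACGTG on both strands and counts as 2 matches. A match is a description of letters and no evidence of binding.

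ALDOA (ENSG00000149925.18, chromosome 16, 30064164 to 30070457 on GRCh38, plus strand) was among the most abundant transcripts, with ranks from 24 to 69 of all genes. Its FPKM was 1488, 1420 and 1402 in Vector, 802, 801 and 818 in EGR1, 561, 609 and 695 in Parental and 1114, 1019 and 1258 in the libraries labelled EGR1 knockout. The 4 groups did not overlap, with Vector highest and Parental lowest. Of the 50-base windows of its longest coding transcript, 88.1% are also in AC093512.2, an annotated gene that overlaps it on the same strand and was listed at 3.17 to 16.9 FPKM, between 0.308% and 3.01% of the ALDOA value, so the split of reads between the names is uncertain.

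ALDOC (ENSG00000109107.13, chromosome 17, 28573115 to 28577264, minus strand), the brain aldolase, was far lower than ALDOA. Its FPKM was 34.7, 34.8 and 36.7 in Vector, 15.6, 19.4 and 18.4 in EGR1, 5.47, 5.43 and 5.92 in Parental and 6.29, 5.12 and 6.54 in the libraries labelled EGR1 knockout. Both PLC/PRF5 groups lay above both MHCC97H groups, which overlapped each other.

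TPI1 (ENSG00000111669.14, chromosome 12, 6867119 to 6870948, plus strand) had an FPKM of 596, 659 and 633 in Vector and 388, 521 and 513 in EGR1, where replicate 1 was the lowest. In MHCC97H cells TPI1 was 211, 231 and 279 in Parental and 514, 482 and 611 in the libraries labelled EGR1 knockout, which overlapped both PLC/PRF5 groups. Its end overlaps SPSB2 on the other strand, with 14.6 to 71.8 FPKM, and whether the counting used strand is not given in the sources used here, so reads of the shared stretch cannot be told apart. Of its 50-base windows, 19.5% are also in the processed copy TPI1P1.

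GAPDH (ENSG00000111640.14, chromosome 12, 6533927 to 6538374, plus strand), the oxidising step, was the most abundant member in every group. Its FPKM was 6003, 5597 and 5647 in Vector, where it ranked first or second of all genes, and 3634, 4681 and 4635 in EGR1. In Parental cells it was 1956, 2147 and 2396 with ranks from 10 to 14, and in the libraries labelled EGR1 knockout it was 3503, 3281 and 3957. Vector stood above all other libraries, Parental below them, and the EGR1 libraries overlapped those labelled EGR1 knockout. GAPDH is a common reference gene, and here its mean differed 2.65-fold between the highest and the lowest group.

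PGK1 (ENSG00000102144.14, chromosome X, 77910739 to 78129296, plus strand) was ordered differently. Its FPKM was 180, 176 and 176 in Vector, 105, 124 and 124 in EGR1, 247, 242 and 254 in Parental and 270, 255 and 299 in the libraries labelled EGR1 knockout. The groups did not overlap, and both MHCC97H groups lay above both PLC/PRF5 groups. GAPDH therefore exceeded PGK1, the next enzyme, by a ratio of 32.4 ± 0.841 (SD, n = 3) in Vector and 36.5 ± 1.79 in EGR1, but by 8.74 ± 0.754 in Parental and 13.04 ± 0.183 in the libraries labelled EGR1 knockout. ATP7A, which overlaps PGK1 on the same strand, was at 3.17 FPKM or less in PLC/PRF5 and at 7.82 to 15.5 in MHCC97H. The split of reads between PGK1 and ATP7A was not tested.

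PGAM1 (ENSG00000171314.8, chromosome 10, 97426160 to 97433441, plus strand) had an FPKM of 462, 439 and 461 in Vector, 313, 342 and 344 in EGR1, 168, 176 and 193 in Parental and 160, 152 and 181 in the libraries labelled EGR1 knockout. The MHCC97H groups overlapped, and both lay below the PLC/PRF5 groups. Of its 50-base windows, 43.1% are also in other annotated genes, mostly in the processed copy AC012085.1, so its level is less certain than that of ALDOC or ENO2, for which that share is 0. No row of the table carried the name of a numbered processed copy of a member.

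ENO1 (ENSG00000074800.15, chromosome 1, 8861000 to 8879250, minus strand) carried nearly all enolase. Its FPKM was 1140, 1034 and 1066 in Vector, 820, 916 and 902 in EGR1, 627, 685 and 743 in Parental and 1060, 1039 and 1195 in the libraries labelled EGR1 knockout. The last group overlapped Vector, and the other groups stood apart. The range of its group means, 1.60-fold, was the smallest among the members.

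ENO2 (ENSG00000111674.8, chromosome 12, 6913745 to 6923698, plus strand) was listed at 0, 0.0319 and 0 FPKM in Vector and at 0.0686, 0.0466 and 0.0329 in EGR1. In MHCC97H cells ENO2 was 14.7, 13.9 and 14.2 in Parental and 16.6, 19.2 and 16.8 in the libraries labelled EGR1 knockout. The neuronal enolase was thus near 0 in one line and measurable in every library of the other. LRRC23, which overlaps the start of ENO2 on the same strand, was at 4.06 to 7.80 FPKM in all libraries and did not share the gap between the lines.

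PKM (ENSG00000067225.17, chromosome 15, 72199029 to 72231822, minus strand) had an FPKM of 1269, 1153 and 1241 in Vector, 907, 1069 and 1096 in EGR1, 900, 968 and 1107 in Parental and 1988, 1810 and 2138 in the libraries labelled EGR1 knockout. The libraries labelled EGR1 knockout stood above all others, and EGR1 and Parental overlapped. The table gives 1 value per gene, so the spliced forms PKM1 and PKM2 were not separated.

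**Figure D1:**
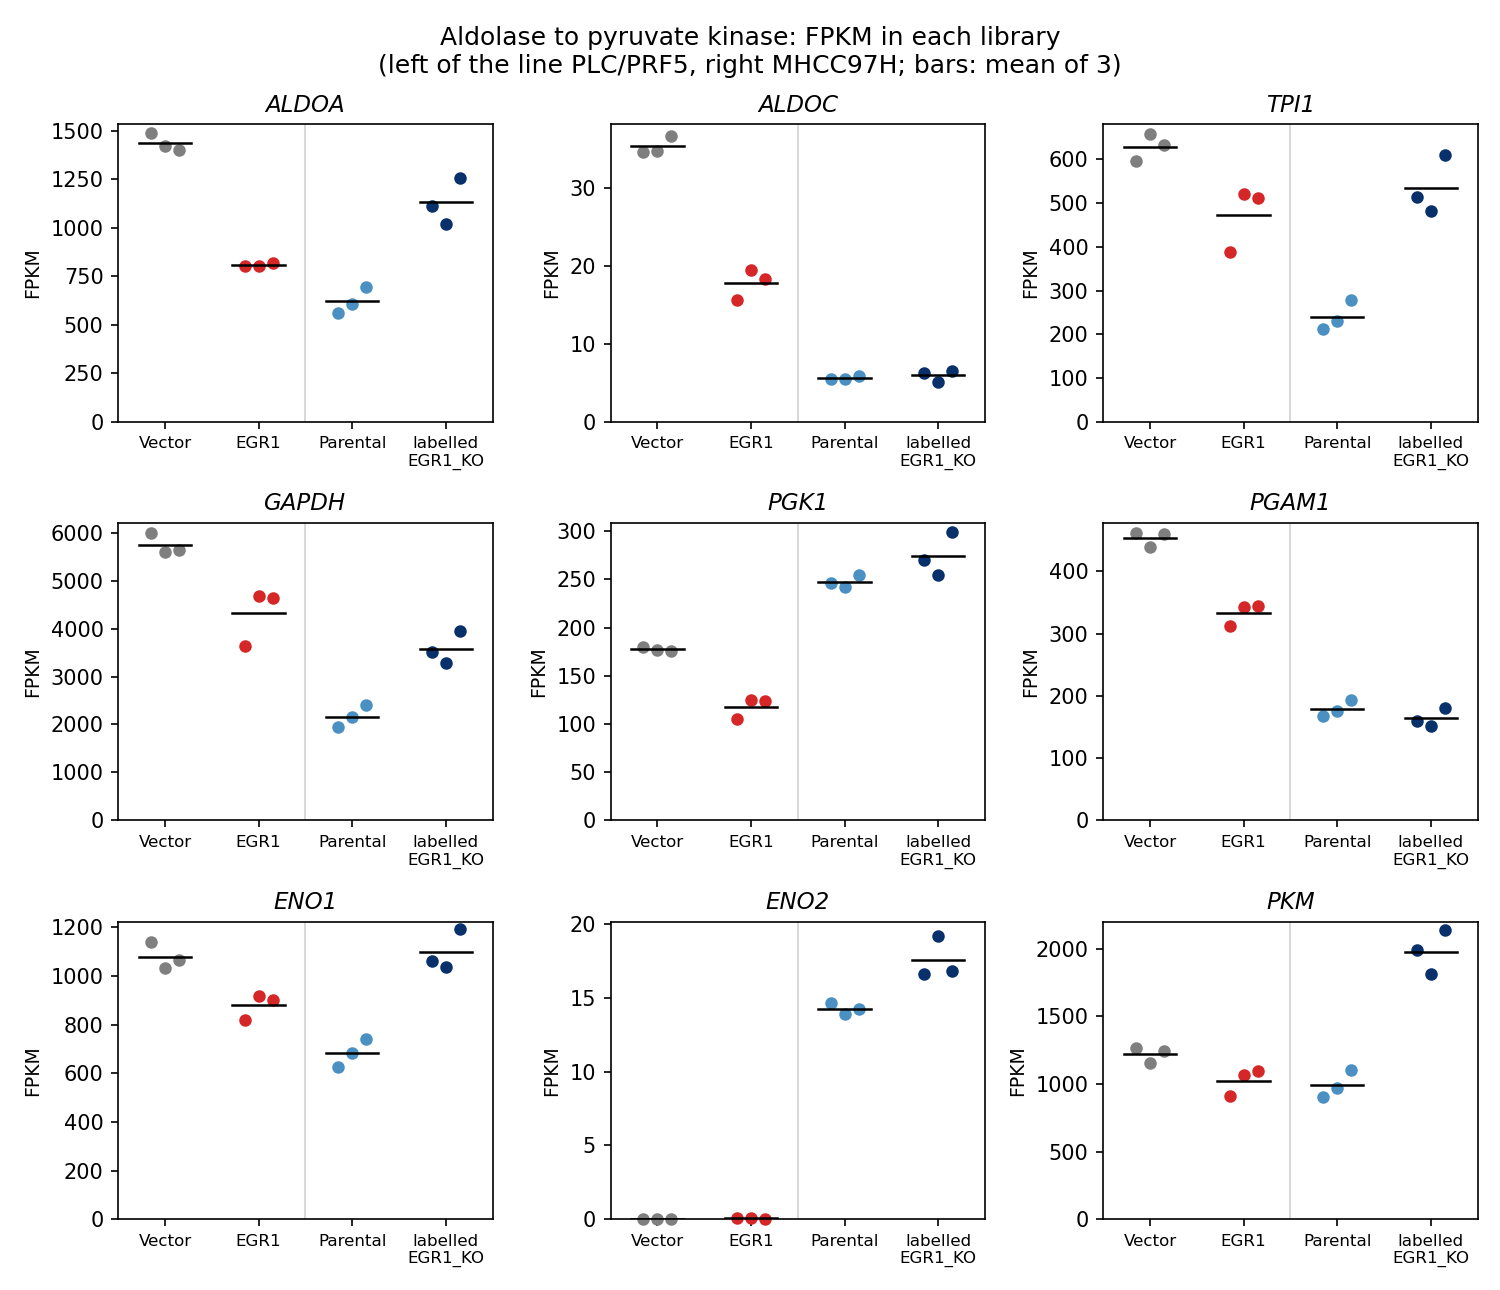
FPKM (linear axis from 0) of the 9 members, 1 panel each, with 1 point per library in the 4 groups and a bar at the mean of 3; PLC/PRF5 groups are left of the grey line and MHCC97H groups right of it. ENO2 is near 0 in PLC/PRF5, PGK1 is highest in MHCC97H, and ALDOC and PGAM1 are highest in PLC/PRF5.

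With EGR1 overexpression in PLC/PRF5 cells, the transcripts of the lower glycolytic enzymes were lower. Of the 8 members above the filter of a mean FPKM of 1, 5 were called lower and 0 higher by limma at an adjusted p under 0.05, against 10.4% of 11671 tested genes called lower. All 8 had every EGR1 library below every Vector library, which 17.3% of tested genes had. Their median difference of log2(FPKM + 1) was -0.44, against 0.09 for all genes. ENO2 was under the filter and was not tested.

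The aldolases fell most. ALDOC fell by 0.96 on the log2 scale (standard error 0.10, limma adjusted p = 3.9e-04), and ALDOA fell by 0.83 (standard error 0.10, adjusted p = 0.0011), to 1.78-fold below Vector. PGK1 fell by 0.59 (adjusted p = 0.0029), PGAM1 by 0.45 (adjusted p = 0.0087) and TPI1 by 0.42 (adjusted p = 0.042). The call of TPI1 was lost on leaving out any of 5 libraries, with limma adjusted p from 0.059 to 0.12, and was kept without EGR1 replicate 1. GAPDH, ENO1 and PKM had differences of -0.42, -0.30 and -0.26 and limma adjusted p of 0.078, 0.071 and 0.14. EGR1 replicate 1 was the lowest of its group for 7 of the 9 members. Without it GAPDH (-0.30, limma adjusted p = 0.022) and ENO1 (-0.25, adjusted p = 0.039) were called, which made 7 members. Equal totals of FPKM in all libraries gave 8 members called lower.

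In the libraries labelled EGR1 knockout, whose EGR1 mRNA exceeded that of Parental, most of the members were higher. Of 9 members tested, 6 were called higher and 0 lower, against 34.8% of 11577 tested genes called higher. In 7 of the 9, each library labelled EGR1 knockout lay above each Parental library, which 38.3% of tested genes showed, and the median difference was 0.68 against 0.02 for all genes. TPI1 was higher by 1.16 on the log2 scale (standard error 0.13, limma adjusted p = 1.1e-04), a 2.23-fold difference, and PKM by 1.00 (standard error 0.12, adjusted p = 1.4e-04). ALDOA (0.86), GAPDH (0.73) and ENO1 (0.68) were also called, with limma adjusted p of 3.3e-04, 0.0010 and 6.0e-04. They cover the steps from aldolase to GAPDH and the last pair, enolase and pyruvate kinase, while PGK1 and PGAM1, which act between them, were not called.

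ENO2 was higher by 0.28 (standard error 0.09, limma adjusted p = 0.025), and this call was lost without Parental replicate 2, without EGR1_KO replicate 2 and with equal total FPKM (0.13, adjusted p = 0.25). PGK1 (0.14, limma adjusted p = 0.18), ALDOC (0.08, adjusted p = 0.57) and PGAM1 (-0.13, adjusted p = 0.27) were not called. For PGK1 and ALDOC the sign turned with equal total FPKM, and PGAM1 was then called lower (-0.28, limma adjusted p = 0.017). The library labelled EGR1 knockout replicate 2 was the lowest of its group for 8 of the 9 members, and ENO2 was highest there. Replicate 3 was the highest for 8, and so was Parental replicate 3 within its own group. Replicate 2 also held the most EGR1 mRNA of the group, and a link between these was not tested.

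**Figure D2:**
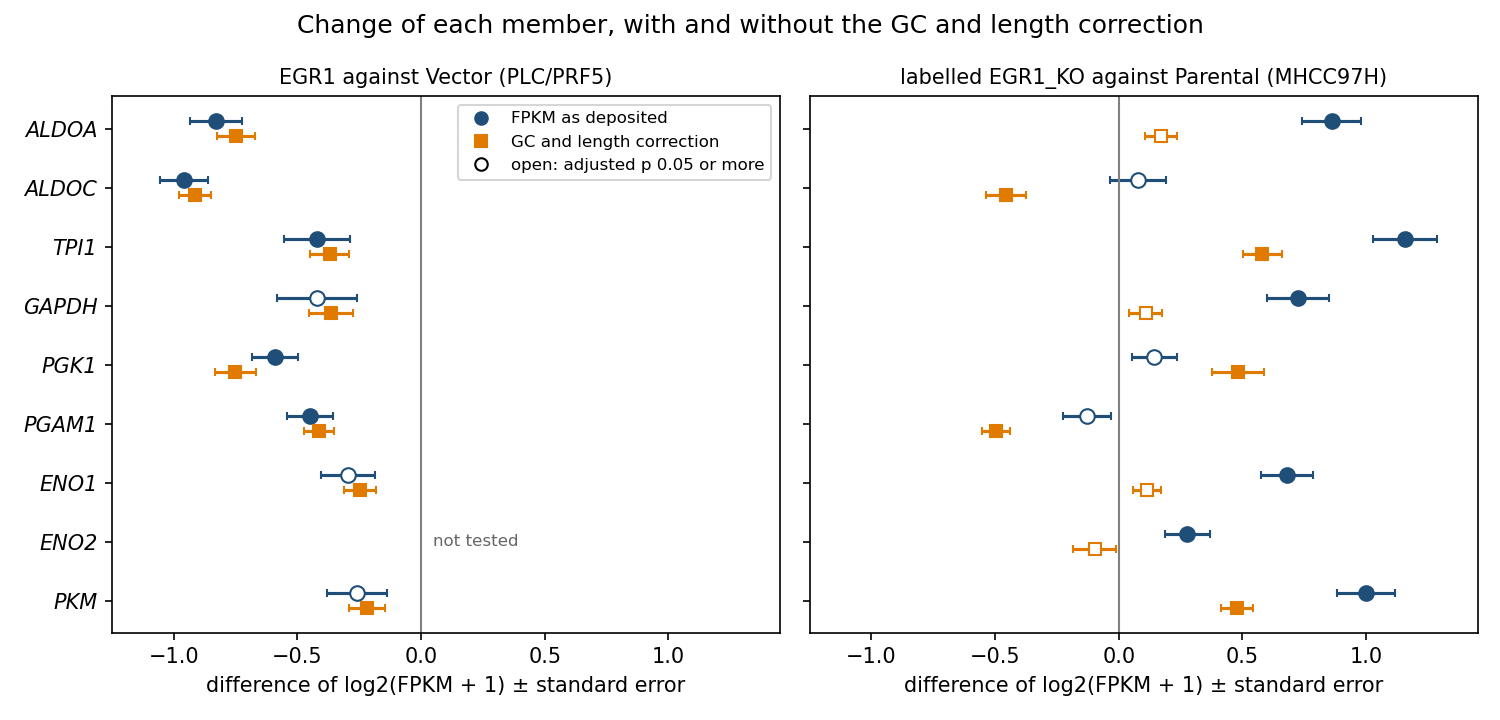
Difference of log2(FPKM + 1) with its standard error for each member, EGR1 against Vector on the left and the libraries labelled EGR1 knockout against Parental on the right; blue circles are FPKM as deposited, orange squares the values after the GC and length correction, and open symbols have a limma adjusted p of 0.05 or more. On the left both sets lie below 0, and on the right the corrected values lie closer to 0 for ALDOA, GAPDH and ENO1 and below 0 for ALDOC and PGAM1.

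Across all genes, the change in both comparisons followed the GC content of the transcript. The Spearman correlation over genes was -0.45 for EGR1 against Vector (10829 genes) and 0.77 for the libraries labelled EGR1 knockout against Parental (10806 genes), where genes are not independent. The members ranged from 43.3% GC for PGK1 to 60.8% for ALDOA, and all but PGK1 were above the median of 48.7%. A trend on GC content and transcript length was therefore removed, which takes out any biological change that follows these properties as well as a technical one.

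After this correction all 8 members tested were called lower with EGR1 overexpression, against 17.8% of 10829 genes. PGK1, with the lowest GC content, had the larger fall (-0.75, limma adjusted p = 4.3e-04), while GAPDH (-0.36, adjusted p = 0.015), ENO1 (-0.25, adjusted p = 0.019) and PKM (-0.22, adjusted p = 0.044) now passed. With the replicate number added as a block to the corrected fit these last 3 were not called, with limma adjusted p of 0.0531, 0.0595 and 0.0991, which left 5.

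In the libraries labelled EGR1 knockout the corrected picture differed from the uncorrected one. TPI1 (0.58, limma adjusted p = 7.4e-04), PGK1 (0.48, adjusted p = 0.0071) and PKM (0.48, adjusted p = 7.7e-04) were called higher, against 24.3% of 10806 genes. ALDOC (-0.46, limma adjusted p = 0.0029) and PGAM1 (-0.50, adjusted p = 3.5e-04) were called lower, against 22.4%. ALDOA (0.17, limma adjusted p = 0.058), GAPDH (0.11, adjusted p = 0.22), ENO1 (0.11, adjusted p = 0.13) and ENO2 (-0.10, adjusted p = 0.39) were not called. Thus TPI1 and PKM were called higher under both settings, and the count of 6 higher became 3 higher and 2 lower.

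**Figure D3:**
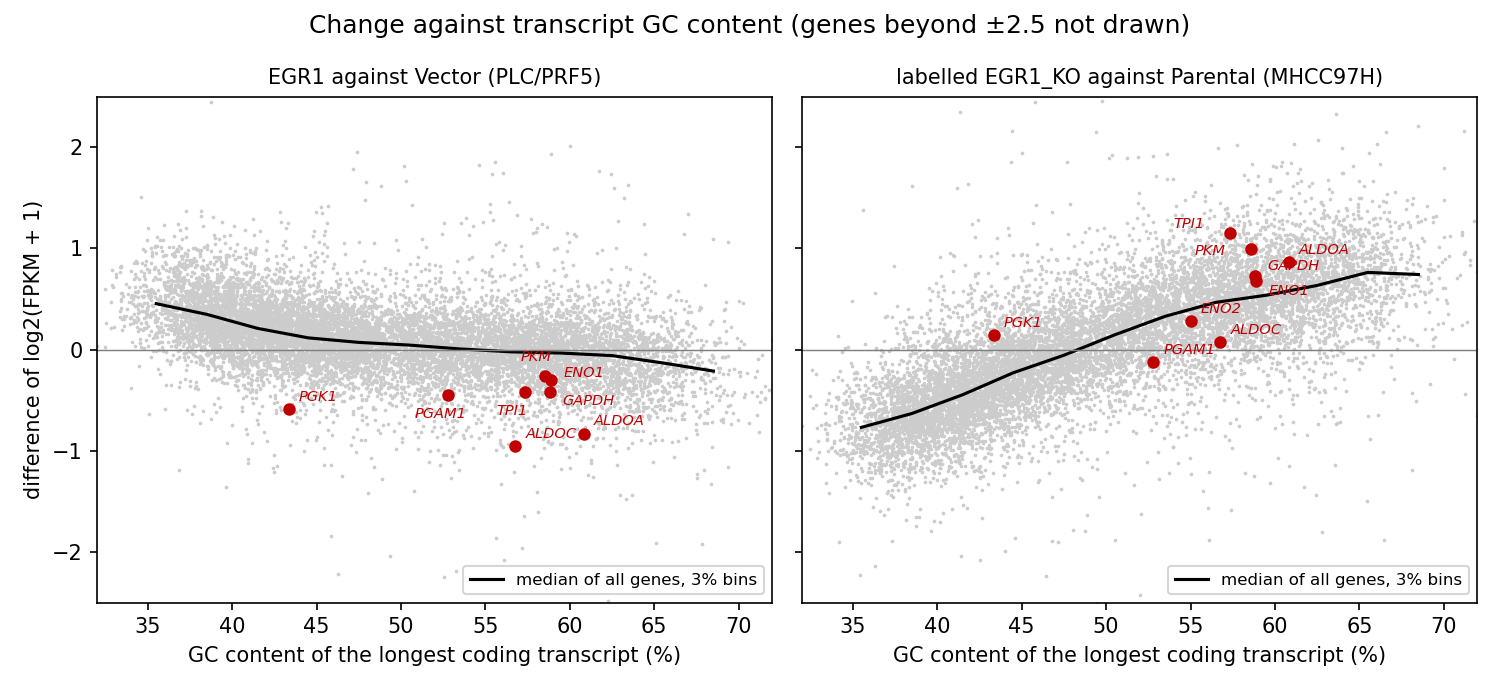
Difference of log2(FPKM + 1) against the GC content of the longest coding transcript for all tested genes (grey), with their median in 3% bins (black line) and the members in red; genes beyond 2.5 in either direction are not drawn. With EGR1 the members lie below the line at every GC content, and in the libraries labelled EGR1 knockout PGK1, TPI1 and PKM lie above it while PGAM1 and ALDOC lie below it.

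The question whether the members changed differently in the comparisons of the 2 lines was tested as the difference between the log2 changes. It was called higher in the libraries labelled EGR1 knockout for 8 of the 9 members, against 30.4% of 12090 genes. The difference was largest for ALDOA, at 1.69 (standard error 0.15, limma adjusted p = 3.4e-06), followed by TPI1 at 1.58 (standard error 0.19, adjusted p = 3.5e-05) and PKM at 1.26 (standard error 0.16, adjusted p = 4.7e-05). For GAPDH it was 1.15, for ALDOC 1.03, for ENO1 0.98 and for PGK1 0.73, all with a limma adjusted p under 0.001. PGAM1 had the smallest difference called (0.32, limma adjusted p = 0.038), which was lost on leaving out any of 7 libraries and after the GC and length correction (-0.06, adjusted p = 0.55). ENO2 was not called (0.22, limma adjusted p = 0.10). It passed the filter through its level in MHCC97H and was at 0.0686 FPKM or less in PLC/PRF5. The ENO2 value is therefore mostly the change in MHCC97H and does not test whether the lines changed differently. After the correction 7 members were called higher, against 26.0% of 11248 genes, with differences from 0.39 for ENO1 to 1.22 for PGK1. Cell line and intervention differ together between these comparisons and cannot be told apart.

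The summed share of the 9 genes in the library gives the size of the programme. It was 2.79%, 2.48% and 2.64% of all FPKM in Vector and 1.81%, 1.95% and 1.95% in EGR1. In MHCC97H cells it was 1.24%, 1.35% and 1.49% in Parental and 2.12%, 1.92% and 2.21% in the libraries labelled EGR1 knockout. The groups did not overlap within a line, and the exact permutation test gave 0.1 in each case, the smallest p that 3 against 3 libraries allow (0.13 after adjustment over 8 share comparisons).

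Isoform shares within a step do not depend on how a library was scaled. They set an abundant transcript against rarer ones, and how the nuclease step changed them was not tested. ALDOC made up 2.41% ± 0.137 (SD, n = 3) of the summed FPKM of ALDOA and ALDOC in Vector and 2.16% ± 0.233 in EGR1, and these overlapped (exact permutation p = 0.2, where 0.1 is the smallest that 3 against 3 allow). In MHCC97H cells the ALDOC share was 0.898% ± 0.0615 in Parental and 0.526% ± 0.0319 in the libraries labelled EGR1 knockout, without overlap (exact permutation p = 0.1). As deposited, ALDOA was called higher there while ALDOC was not called. After the GC and length correction ALDOA (0.17, limma adjusted p = 0.058) was not called and ALDOC (-0.46, adjusted p = 0.0029) was called lower. The shares themselves were not corrected for GC content.

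For enolase, ENO2 held 2.05% ± 0.210 (SD, n = 3) in Parental and 1.58% ± 0.214 in the libraries labelled EGR1 knockout, without overlap (exact permutation p = 0.1), and at most 0.00828% in a PLC/PRF5 library. ENO3, the muscle form, held 0.647% in Vector, 0.936% in EGR1 and 0.154% in both MHCC97H groups, so the minor enolase was ENO3 in one line and ENO2 in the other. For pyruvate kinase, the liver form PKLR held 0.115% ± 0.00927 (SD, n = 3) in Vector and 0.0496% ± 0.00988 in EGR1, without overlap (exact permutation p = 0.1), and 0.00246% or less in MHCC97H libraries.

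**Figure D4:**
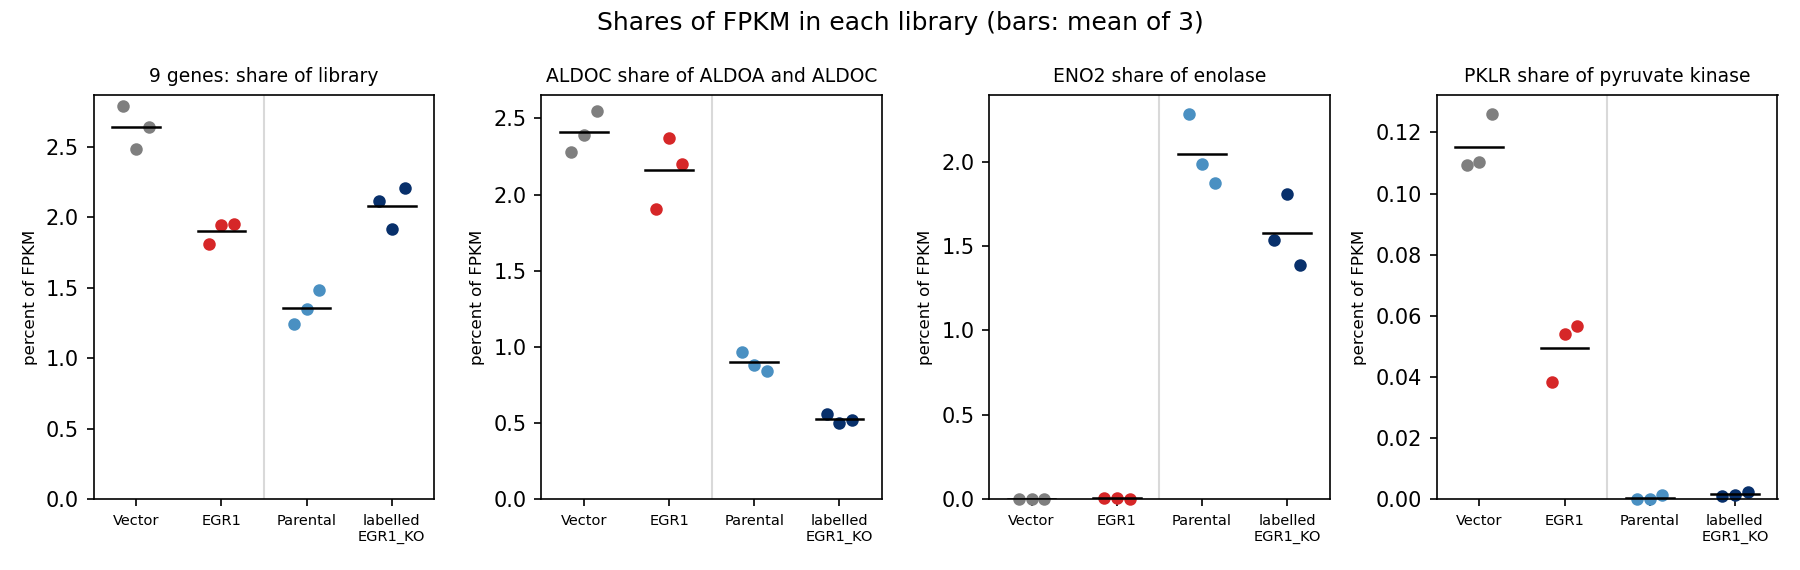
Share of FPKM in percent (axes from 0, each with its own range) in the 12 libraries, with bars at the mean of 3, for the 9 genes in the library and for ALDOC, ENO2 and PKLR within their steps. The 9-gene share is lower in EGR1 than in Vector and higher in the libraries labelled EGR1 knockout than in Parental, while the ALDOC shares of Vector and EGR1 overlap.

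Of 9 further isoforms of these steps, 4 passed the filter in each line. GAPDHS, the sperm form of GAPDH, was called higher with EGR1 (0.45, limma adjusted p = 0.018), and PGAM4, which lies within the PGK1 locus on the other strand, was called lower in the libraries labelled EGR1 knockout (-0.72, adjusted p = 7.3e-04). Both were at 2.64 FPKM or less in every library. PGK2 and PGAM2 were at 0 in 11 of 12 libraries, and BPGM and ENO3, the highest of these isoforms, reached 8.85 and 8.94 FPKM.

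The rest of the pathway, from glucose transporters to lactate export, was read from a list of 25 genes. With EGR1, 9 of 19 tested were called lower and 3 higher, against 10.4% and 19.2% of all tested genes, with a median of -0.30. SLC2A3 (GLUT3), a glucose transporter, had the largest fall (-1.14, limma adjusted p = 7.2e-05), and PFKL (-0.97), PFKFB4 (-0.81), LDHA (-0.68) and SLC2A1 (-0.64) were also called lower. The liver glucose transporter SLC2A2 (0.61, limma adjusted p = 0.0039), HKDC1 (0.39) and PFKFB2 (0.37) were called higher. In the libraries labelled EGR1 knockout 10 of 17 were called higher and 3 lower, against 34.8% and 31.5%, with a median of 0.31. The phosphofructokinases PFKP (1.28) and PFKL (1.07), the mitochondrial pyruvate carrier subunit MPC2 (1.12) and the lactate exporter SLC16A3 (0.95) were called higher. LDHA, which converts pyruvate to lactate (-0.37, limma adjusted p = 0.010), and the transporter SLC16A1 (-0.72) were called lower there, although PKM one step before LDHA was higher. After the GC and length correction 12 were called lower and 1 higher with EGR1. Of 10829 genes 17.8% were then called lower and 1821 higher. In the libraries labelled EGR1 knockout 7 were then higher and 1 lower, against 24.3% and 22.4%, and LDHA (-0.17, limma adjusted p = 0.17) was no longer called.

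A list of 16 hypoxia targets outside glycolysis was read beside the members, many of which share that regulation. With EGR1, 10 of 16 were called lower and 0 higher, against 10.4% and 19.2% of all tested genes, with a median of -0.61, led by CA9, a carbonic anhydrase (-2.83), and EGLN3, an oxygen-sensing prolyl hydroxylase (-2.04). In the libraries labelled EGR1 knockout 7 of 13 were called lower and 2 higher, against 31.5% and 34.8% of all tested genes, with a median of -0.48 where that of the members was 0.68. ADM (0.94) and P4HA2 (0.47) were the genes called higher. After the GC and length correction the median of the hypoxia targets was -0.24 and that of the members 0.11. Of the hypoxia targets 6 were then called lower and 2 higher, against 22.4% and 24.3% of 10806 genes.

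The control cells of the lines were also compared, and these libraries are the controls of the comparisons above. All 9 members were called: 7 were lower in Parental than in Vector, against 40.9% of 12046 genes, and PGK1 and ENO2 were higher, against 38.8%. ALDOC was lowest relative to Vector (-2.46, limma adjusted p = 2.0e-08), and GAPDH, TPI1, PGAM1 and ALDOA differed by -1.41, -1.39, -1.34 and -1.21. ENO1 (-0.66) and PKM (-0.30, limma adjusted p = 0.014) differed less. PKM turned with quantile normalization (0.08, limma adjusted p = 0.32) and after the GC and length correction (0.08, adjusted p = 0.21), which also ended the call of PGK1 (0.48 as deposited, 0.13 corrected, adjusted p = 0.10). ENO2 was higher in Parental by 3.92 with a pseudocount of 1 and by 7.03 with one of 0.1, since Vector was at or near 0. Outside the members, LDHB was at 0.462 FPKM or less in PLC/PRF5 and between 571 and 651 in MHCC97H, a gap of the same kind as that of ENO2.

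GAPDH, TPI1 and ENO2 lie within 1 stretch of chromosome 12, with 375370 bases between GAPDH and ENO2. Of 31 genes annotated between them besides TPI1, 11 passed the filter. With EGR1, 2 of the 11 were called higher and 0 lower, against 19.2% and 10.4% of all tested genes. Their median was 0.0034, while TPI1 was called lower. In the libraries labelled EGR1 knockout 8 of the 11 were called higher and 0 lower, against 34.8% and 31.5%, with a median of 0.59. After the GC and length correction 5 were called higher and 1 lower, against 24.3% and 22.4%, and the median was 0.088. As deposited, the genes on either side of TPI1 were called higher with it in those libraries: USP5 by 0.92 (limma adjusted p = 9.6e-05) and SPSB2 by 1.11 (adjusted p = 3.0e-05). Beside ENO2, LRRC23 was called higher by 0.45 (limma adjusted p = 0.0077) and ATN1 by 0.71 (adjusted p = 2.1e-04). After the GC and length correction LRRC23 was not called (-0.044, limma adjusted p = 0.69), and ATN1 (0.15, adjusted p = 0.040), USP5 (0.45, adjusted p = 4.7e-04) and SPSB2 (0.39, adjusted p = 0.0048) were called with smaller differences. These neighbours had differences between -0.20 and 0.24 with EGR1, and none of the 4 was called.

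Over the 12 libraries the members did not follow 1 pattern. The Pearson correlation of log2(FPKM + 1), which rests on 4 groups in 2 lines, was 0.99 between ALDOC and PGAM1, 0.94 between TPI1 and ENO1 and 0.93 between ALDOA and ENO1. ENO2 ran against ALDOC (-0.94) and PGAM1 (-0.96), and PGK1 followed ENO2 (0.88) more than GAPDH (-0.49).

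Among 11439 genes whose FPKM averaged 1 or more, the closest pattern outside the members was that of PFKL for ALDOA (r = 0.99), the liver phosphofructokinase that acts one step before aldolase. The FPKM of PFKL ranged from 20.0 to 64.6, and CHST14 was nearly as close to ALDOA (r = 0.991 against 0.994). The closest genes were PARM1 for ALDOC, TIMM17B for TPI1, PPIB for GAPDH, TUBA1C for PGK1, GMDS for PGAM1, CYB5R3 for ENO1, SPAAR for ENO2 and PORCN for PKM, with r from 0.98 to 1.00. SPAAR, like ENO2, was at 0.0950 FPKM or less in PLC/PRF5 and between 14.6 and 20.7 in MHCC97H.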

How the data were processed

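RNA of 12 libraries was selected with oligo(dT), treated with duplex-specific nuclease, which degrades abundant cDNA, and sequenced on a NovaSeq instrument. The authors deposited FPKM per gene name. The submitters' processing notes name StringTie and hg38, and the aligner, annotation and strand setting are not given in the sources used here. A limma 3.58.1 fit (R 4.3.3) with an intensity trend took log2(FPKM + 1) of all genes that averaged 1 FPKM or more in the libraries compared, each comparison on its own libraries and the difference of comparisons on all 12, 2-sided, with Benjamini-Hochberg adjustment over all genes and a threshold of 0.05. Differences therefore understate changes of low genes. Read depth is unknown, and counting error was not estimated. Shares were compared by 2-sided exact permutation tests. The GC and length correction removed splines of 5 degrees of freedom on GC content and log length of the longest coding transcript of GENCODE 29, found for 97.6% of names other than assembled loci, from each library's departure from the mean over the fit. The fit was tested on simulated data. Plots used matplotlib 3.10.9 (Python 3.11.15).

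The members and lists were chosen with earlier results of these data known. All 9 members are named, and other genes where they passed the threshold, were the highest isoform, lay next to TPI1 or ENO2, overlap a member or had the closest pattern. LDHB, PGK2, PGAM2 and the individual markers were named after their values were seen, and PKLR for its fixed share. Alternatives were a pseudocount of 0.1, no filter on the mean, equal totals, quantile normalization, no trend, 1 fit of all libraries, a threshold of 0.01, the replicate number as a block, the GC and length correction, and leaving out each library.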

Additional observations from a re-analysis of the deposited data

Results flagged for a closer look

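The change in the libraries labelled EGR1 knockout against Parental differed from the change in EGR1 against Vector for 8 members, by the limma test of the difference itself (adjusted p under 0.05). All 8 were called higher, as were 30.4% of 12090 genes. On the log2 scale the difference was 1.69 for ALDOA, 1.58 for TPI1, 1.26 for PKM, 1.15 for GAPDH, 1.03 for ALDOC, 0.98 for ENO1, 0.73 for PGK1 and 0.32 for PGAM1. The PGAM1 call was lost on leaving out single libraries, and its sign turned with quantile normalization (-0.033) and the GC and length correction (-0.061, limma adjusted p = 0.55). EGR1 mRNA was higher in both the EGR1 libraries and those labelled EGR1 knockout than in their controls (by 4.27 and 0.83 on the log2 scale, without the GC and length correction). Groups of 3 libraries were not searched for outlying samples.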

How the results depend on the processing

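Of the counts of members called, that for EGR1 against Vector (5) moved to 8 with equal total FPKM and to 8 with the GC and length correction, and the cause was not tested. Leaving out each library gave 4 to 7 members for EGR1 against Vector, 5 to 6 for the libraries labelled EGR1 knockout against Parental, 8 to 9 for Parental against Vector and 7 to 8 for the difference of the comparisons. For the libraries labelled EGR1 knockout the sign turned for PGK1 with equal totals (-0.0091) and quantile normalization (-0.089), for ALDOC with equal totals (-0.055) and the GC and length correction (-0.46), and for ENO2 with that correction (-0.097). PKM in Parental against Vector turned with quantile normalization (0.075) and the correction (0.079). In the difference of the comparisons ENO2 turned with a pseudocount of 0.1 (-0.15) and the correction (-0.15), and PGAM1 with quantile normalization (-0.033) and the correction (-0.061). The values with the correction and the replicate block were the same. Over all genes, EGR1 against Vector gave 3457 calls, 1468 at a threshold of 0.01 and 1919 without EGR1 replicate 2, and the libraries labelled EGR1 knockout gave 7671, or 5049 with the correction.

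Whether the replicate numbers pair the samples could not be decided from 3 same-numbered pairs per comparison. The deviations of same-numbered libraries correlated by -0.13, 0.14 and -0.076 for EGR1 against Vector and by 0.032, 0.030 and 0.47 in MHCC97H. The value of 0.47, for replicate 3, was the highest of the MHCC97H pairs, and not every library correlated best with its own number. With the replicate block the members called were 5, 6, 9 and 8 in the 4 comparisons, as without it. The depth behind FPKM is unknown, so low values such as those of ENO2 in PLC/PRF5 have no floor, and 3 libraries a group limit the precision.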
